A study of Mus musculus
Mus spretus with 18 samples.

Results

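The respiratory chain genes were taken as every gene whose symbol begins with Nduf, Sdha to Sdhd, Uqcr, Cox4 to Cox8 or Atp5, which gave 96 of the 38924 genes in the expression table. They were 7 core and 31 accessory subunits of complex I, 7 assembly factors of complex I, 4 subunits and 2 assembly factors of complex II, 8 genes of complex III, 18 of complex IV, 16 of complex V and 3 other matches, namely Atp5sl, Atp5l2 and the pseudogene Atp5l-ps1. Ndufa4 and its paralogue Ndufa4l2 were grouped by name with the accessory subunits of complex I in all counts. The 96 genes lay on 19 chromosomes, and Ndufa1, Ndufb11 and Cox7b lay on X. The samples were 18 RNA-seq libraries of F1 hybrids of female C57BL/6J and male SPRET/EiJ mice, 2 libraries in each of 9 groups. Cortex, Heart, Kidney, Lung, Spleen and Liver came from 2 female animals 8 weeks old, per the study's methods, so the tissues share animals and the tests, which treat libraries as separate samples, take no account of it. The embryonic stem cells (ESC) were 2 separate clones. A fibroblast line of the same hybrid was treated for 4 h with 0.1 µM pladienolide B (PladB), an inhibitor that binds the SF3B part of the U2 splicing particle, or with the solvent dimethyl sulfoxide (DMSO). All 9 groups therefore carried 1 C57BL/6J and 1 SPRET/EiJ copy of each autosomal gene, none was a pure strain, and each fibroblast and each ESC result rests on a cell line and not on animals.

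The respiratory chain moves electrons from NADH and succinate to oxygen through complexes I to IV in the inner mitochondrial membrane, and complex V, the ATP synthase, uses the proton gradient this builds to make ATP. Most subunits are coded in the nucleus, which is where all the genes described here lie, and a small set is coded by the mitochondrial genome. Several subunits of complex IV, cytochrome c oxidase, exist as isoforms coded by separate genes, of which Cox6a2, Cox7a1 and Cox8b are known as the heart and muscle forms, Cox4i2 as the lung form and Cox6b2, Cox7b2 and Cox8c as testis forms. Heart muscle is known for its high content of mitochondria.

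Expression was given as TPM, a level scaled for gene length and for the library total, so that levels of different genes can be compared within a library. The skipped exon (SE) tables held between 160 and 297 events of respiratory chain genes each, 482 events of 83 genes over all tables, and the table of retained introns (RI) held 6 of its 2243 events. Reads over the splice junctions of all SE events numbered 46558287 to 129496306 per tissue library and 129067054 to 151755602 per fibroblast library. The labelled tissues carried their own markers, each list of 4 summing to at least 26.1 times its highest sum in any other tissue library. The heart list (Actc1, Myh6, Nppa, Tnnt2) nevertheless summed to 771 and 987 TPM in the 2 Lung libraries, against 0.426 to 31.8 TPM in the other tissues besides Heart. The brown fat gene Ucp1 stood at 27.5 and 6.07 TPM in the Kidney libraries and under 0.3 TPM elsewhere. Of the same list, Cidea was highest in Heart (61.8 and 63.5 TPM, Kidney 32.2 and 14.8). Elovl3 was highest in Liver replicate 1 (6.40 TPM, Kidney 1.73 and 0.727). The white fat genes Adipoq (29.6 and 51.5 TPM) and Plin1 (12.8 and 25.5) were highest in Kidney, and Fabp4 in Heart (1614 and 1688 TPM, Kidney 396 and 451). The 4 skeletal muscle genes summed to 248 and 548 TPM in the ESC clones, led by Mylpf at 200.3 and 547 TPM, while Acta1 stood at 47.5 and 1.08 TPM and the heart list summed to 2.92 and 5.08 TPM.

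Heart had the highest levels of respiratory chain transcripts, Kidney came next, and Lung and Spleen were among the lowest. In the Heart libraries the 96 genes took 8.55% and 8.30% of all TPM, in Kidney 3.73% and 3.54%, and in each of the other 14 libraries between 1.14% and 2.13%. The median over the 96 genes was 562 ± 11.7 TPM in Heart (SD, n = 2), 255 ± 11.3 in Kidney, 151 ± 1.58 in Cortex and 141 ± 9.72 in ESC. It was 112 ± 13.3 TPM in Liver, 97.3 ± 4.13 in Lung, 95.9 ± 1.24 in Spleen and 82.0 ± 4.37 in the DMSO fibroblasts, with 96.8 ± 4.42 in PladB. Neither Heart nor Kidney overlapped with any other group. Cortex and ESC, and Liver and Lung, lay apart by little more than the SD of the ESC and Liver libraries, and Lung and Spleen overlapped. Of the 96 genes, 82 (85.4%) had their highest tissue mean in Heart, against 6.75% of the 21925 genes tested, and 41 had their lowest in Lung, 24 in Liver and 21 in Spleen. The share of all TPM taken by genes of the mitochondrial genome was highest in Heart (19.4% and 19.1%), then Kidney (17.3% and 15.3%). It was lowest in Lung (3.16% and 2.53%) and Spleen (3.01% and 2.49%). Since TPM sums to a fixed total, counts without genes of the mitochondrial genome are also given. Those for Kidney, Lung and Spleen follow below, the others in the last section.

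**Figure D1:**
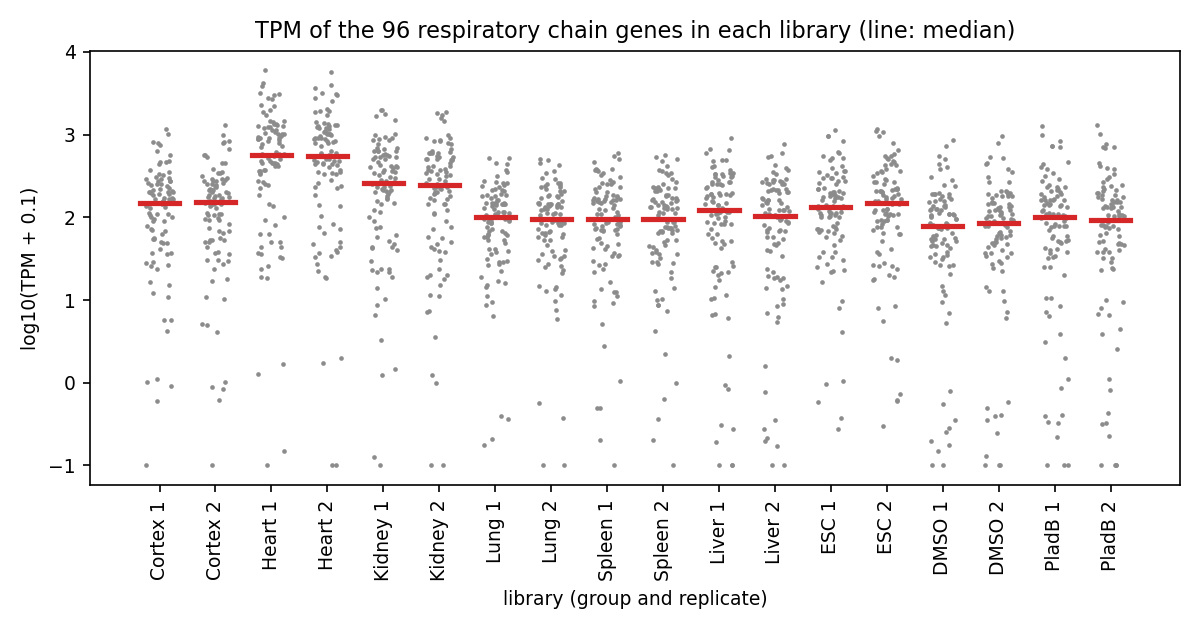
Each grey point is 1 of the 96 genes in 1 library, on a log10(TPM + 0.1) scale, and the red line is the library's median. The medians of the Heart libraries, 554 and 570.4 TPM, and of the Kidney libraries, 247 and 263 TPM, lie above those of all other libraries.

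The highest tissue mean of a respiratory chain gene was 6.30 times its lowest (median, against 16.6 over all genes tested). Genes with a tissue mean of 0 have no such ratio and were left out of both medians, Cox7b2 and Cox8c among the 96. Once each value was divided by its library's median over the 96 genes, the median range fell to 1.88-fold. By complex this median range was 1.72-fold for the core of complex I, 1.75 for its accessory subunits, 1.87 for complex II, 1.88 for complex III and 1.66 for complex V. It was 7.50-fold for complex IV, where the isoform sets lie, and 3.73 and 5.92 for the assembly factors of complexes I and II. Before the division the assembly factors had the smaller median ranges, 4.15-fold and 2.62-fold, against 6.09 to 9.01 for the groups of subunits.

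Mean levels over the 7 tissues spanned about 3 orders of magnitude. The highest were Atp5a1, the alpha subunit of complex V, at 1350.0 TPM, Ndufa4 at 1173 TPM and Cox6b1 at 1144 TPM. Ndufa4 was first described in complex I and is now assigned to complex IV, but is grouped with complex I here. In complex III Uqcrc1 was highest at 570.1 TPM and Uqcrq lowest at 186 TPM, and in complex II Sdha stood at 412 TPM and the membrane anchor Sdhc at 130.1 TPM. In the core of complex I the lowest was Ndufs3 at 134 TPM. Assembly factors were lower, with Ndufaf3 at 49.0 TPM, Ndufaf6 at 15.5 TPM, Sdhaf1 at 36.2 TPM and Sdhaf2 at 33.9 TPM. The lowest of the subunits of complexes I, V and IV were Ndufb2 at 18.2 TPM, Atp5g2 at 18.4 TPM and Cox8c at 0.872 TPM. Of the other matches Atp5sl was highest at 42.1 TPM and Atp5l-ps1 lowest at 0.748 TPM. None of the 96 stayed under 1 TPM in every library. Many of these genes have processed copies elsewhere in the genome that could share reads with them, and how far this moved a level was not tested.

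Which genes differed in each tissue was asked with limma on log2(TPM + 0.1), each tissue against the mean of the other 6, with a call at an adjusted p under 0.05 and a log2 difference of at least 1. All 96 genes passed the filter of 1 TPM in 2 libraries, Cox7b2 and Cox8c only through ESC, so their levels, and the calls counted for them in any tissue, are a description. The 7 comparisons share their libraries. TPM is a share of a library, and the median log2 difference of all genes was itself not 0 (−1.52 in Liver and −0.72 in Heart at one end, 0.38 in Cortex and 0.34 in ESC at the other). Counts are therefore also given after each library was centred on the median log2 level of its genes.

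In Heart 81 of the 96 genes were higher and 2 lower, where 11.6% of all genes tested were higher and 37.5% lower. The median log2 difference was 2.08 for the respiratory chain genes and −0.72 for all genes. After centring 90 were higher and 0 lower (all genes 19.8% and 18.1%, together 37.8%). All 7 core and 31 accessory subunits of complex I rose, as did all 4 subunits of complex II, all 8 of complex III and 14 of 16 of complex V. In complex IV 12 of 18 were higher, in the assembly factors of complex I 3 of 7 and in those of complex II 0 of 2. In a bulk sample a larger share of muscle cells and more of these transcripts per cell cannot be told apart.

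The largest differences in Heart were in complex IV. Cox8b (chromosome 7, 140898942 to 140900446) stood at 2682 and 2762 TPM in Heart, at 23.4 and 11.03 in Kidney, at 17.0 and 12.9 in Lung and under 1 TPM in every other library. Cox6a2 (chromosome 7, 128205435 to 128206366) stood at 5969.6 and 5697 TPM in Heart, 95.2 and 84.9 in Lung, 6.42 to 12.3 in Cortex, Kidney and Spleen, and under 0.1 in Liver. Cox7a1 (chromosome 7, 30184171 to 30186030) stood at 3119.9 and 3091 TPM in Heart, 112 and 159 in ESC, and under 76 TPM elsewhere. No Heart library overlapped with another tissue for any of these genes. Their log2 differences were 10.88 ± 0.28 (SE), 9.78 ± 1.24 and 7.11 ± 0.13, with adjusted p-values of 1.9e-09, 5.1e-05 and 3.1e-10. The larger error of Cox6a2 came with its ESC clones, which stood at 76.2 and 0.494 TPM. Atp5g1, a gene of the membrane ring of complex V, stood at 452 and 441 TPM against 25.8 to 115 elsewhere, a log2 difference of 3.05 ± 0.11 (adjusted p = 1.4e-08). Cox4i2 stood at 33.2 and 32.9 TPM in Heart, above all tissues but Lung, with a log2 difference of 3.21 ± 0.18 (adjusted p = 2.1e-07).

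In Heart Cox6a1, the form of the same subunit used in most tissues, went the other way. It stood at 186 and 187 TPM in Heart and at 349 to 1025 TPM in the other tissues, without overlap, and its log2 difference was −1.46 ± 0.07 (adjusted p = 6.8e-08), or −0.80 after centring, where it was no longer called. Cox6a2 made up 97.0% and 96.8% of the summed TPM of both genes in Heart and 20.5% and 18.7% in Lung, where the heart markers were also read. Cox7b2 was listed at 0 in both Heart libraries and was called lower, a call that was lost after centring, with a pseudocount of 1 and without either Heart library. Cox8a, at 527 and 474 TPM, was below the Cortex, Kidney and ESC libraries, and its difference of −0.57 was under the minimum size.

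**Figure D2:**
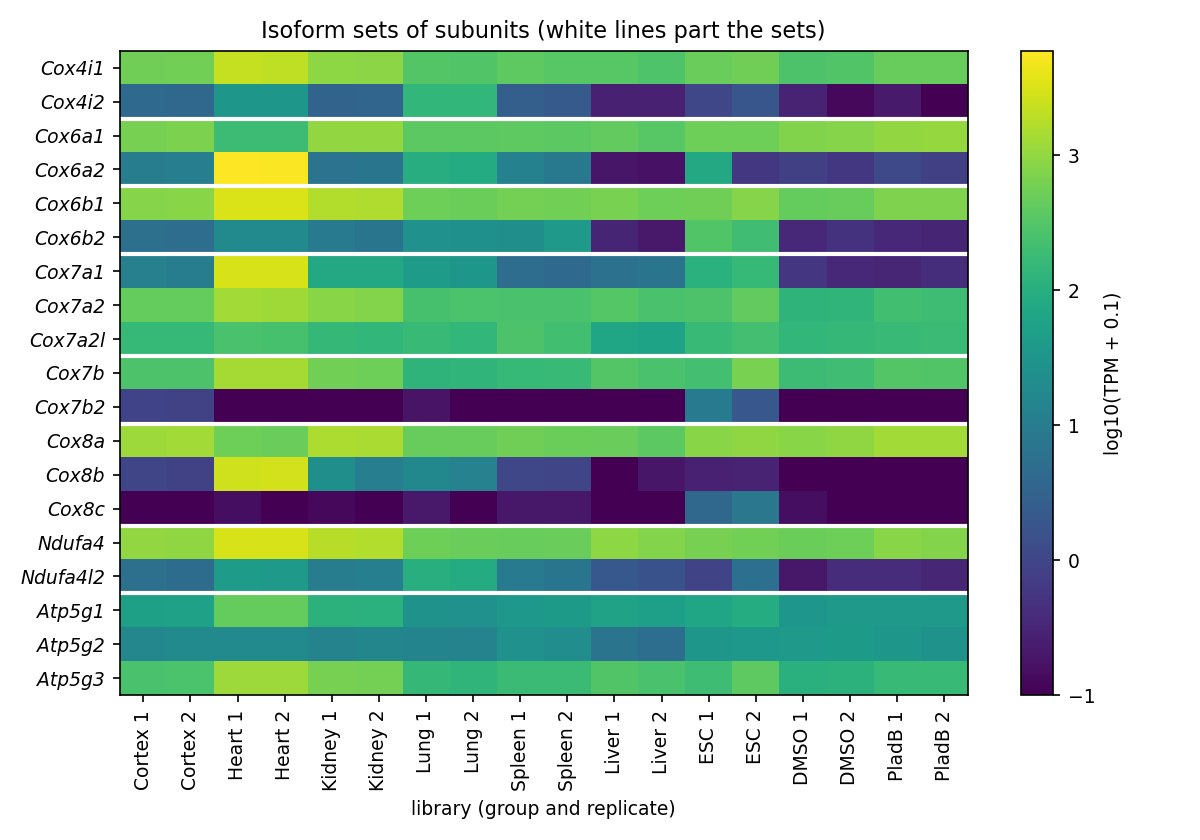
Rows are the genes of the isoform sets, columns the 18 libraries, and the colour is log10(TPM + 0.1). Cox6a2, Cox7a1 and Cox8b are brightest in Heart, Cox4i2 and Ndufa4l2 in Lung, and Cox6b2, Cox7b2 and Cox8c in ESC.

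In Kidney 19 genes were higher and 2 lower (all genes 16.6% and 18.6%), with a median log2 difference of 0.78 against −0.13 over all genes, and 9 were higher and 2 lower after centring (all genes 14.7% and 22.4%). Without genes of the mitochondrial genome 27 were higher and 2 lower, with 18.4% of all genes higher. All 4 subunits of complex II were among the higher ones, with 3 of 8 of complex III and 5 of 18 of complex IV. Cox8b differed most, by 2.25 ± 0.28, beside the 27.5 and 6.07 TPM of Ucp1 in the same libraries, in which replicate 1 was the higher for both genes. The white fat genes Adipoq, Plin1 and Fabp4 were higher in replicate 2 instead. Whether fat tissue took part in the value of Cox8b was not tested. Cox6a1 rose by 1.38 ± 0.07, the Rieske iron-sulfur protein Uqcrfs1 by 1.35 ± 0.11, Atp5b, the catalytic beta subunit of complex V, by 1.27 ± 0.07 and Cox8a by 1.27 ± 0.10 on the log2 scale, with adjusted p-values of at most 4.6e-06. Each of these was called after centring too. Cox7b2 was listed at 0 and Cox8c was at 0.0256 and 0 TPM. Both were called lower, but not with a pseudocount of 1, Cox7b2 not without either Kidney library and Cox8c not without Kidney replicate 2 (adjusted p = 0.084).

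In Lung 4 genes were higher and 39 lower (all genes 25.8% and 14.9%), with a median of −0.92 against 0.17 over all genes, and 3 and 78 after centring (all genes 18.3% and 27.2%, together 45.5%). Cox4i2 stood at 146 and 145 TPM in Lung and at most 33.2 in any other library, a log2 difference of 5.70 ± 0.18 (adjusted p = 7.1e-09). It made up 31.6% and 32.5% of the Cox4 transcripts in Lung and at most 1.58% elsewhere. Ndufa4l2, a paralogue of Ndufa4, stood at 103 and 85.5 TPM against 0.871 to 43.3 in the other tissues, a difference of 3.83 ± 0.47 (adjusted p = 5.1e-05). Cox8b (2.11 ± 0.28) and Cox6b2 (1.27 ± 0.20) were also called higher, Cox8b beside the heart markers given above, whose part in it was not tested. Cox6b2, at 26.4 and 25.0 TPM, was higher than the mean of the logs elsewhere but below the arithmetic mean, 52.0 TPM, which ESC led, and was not called after centring (0.73) or with a pseudocount of 1 (0.88). The lower genes were led by Cox5a (−1.81 ± 0.10), Atp5g1 (−1.69 ± 0.11), Cox7b (−1.60 ± 0.28), Atp5b (−1.60 ± 0.07) and Uqcrfs1 (−1.56 ± 0.11). Cox5a stood at 216 and 233 TPM in Lung against 367 to 2783 in the other tissues, without overlap. Without genes of the mitochondrial genome 53 of the 96 were lower, with 16.4% of all genes lower.

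In Spleen 1 gene was higher and 35 lower (all genes 26.7% and 22.1%), with a median of −0.87 against 0.17, and 0 and 72 after centring (all genes 18.5% and 32.7%, together 51.2%). The lower ones included 7 of 8 genes of complex III, 12 of 31 accessory subunits of complex I and 6 of 16 of complex V. Cox7a1 stood at 5.05 and 4.16 TPM, a log2 difference of −3.82 ± 0.13 (adjusted p = 1.1e-08), Cox8b at 0.958 and 0.894 TPM (−2.39 ± 0.28), Atp5b at 371 and 417 TPM (−1.40 ± 0.07) and Ndufb9 at 205 and 225 TPM (−1.38 ± 0.10). Cox7b2, listed at 0, was called lower, but not without either Spleen library or with a pseudocount of 1. Cox6b2 was higher by 1.49 ± 0.20, at 23.4 and 36.7 TPM, on the scale of logs only (arithmetic mean elsewhere 51.3 TPM), and was not called after centring. Without genes of the mitochondrial genome 48 of the 96 were lower, with 23.9% of all genes lower.

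In Liver 0 genes were higher and 21 lower, where 7.97% of all genes were higher and 67.4% lower (together 75.4%), and this direction turned with the scaling. The median was −0.70 for the respiratory chain genes and −1.52 for all genes, and after centring 59 were higher and 5 lower (all genes 25.3% and 17.7%, together 43%). The count of lower genes was 31 without Liver replicate 1 and 14 without Liver replicate 2. The 5 isoforms with the largest differences were Cox6a2 (−7.69 ± 1.24), Cox6b2 (−6.48 ± 0.20), Cox8b (−5.75 ± 0.28), Cox4i2 (−4.84 ± 0.18) and Cox7a1 (−3.29 ± 0.13), each still called lower after centring. All but Cox7a1, at 5.93 and 6.79 TPM, were at most 0.21 TPM in both Liver libraries.

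In ESC 6 genes were higher and 5 lower (all genes 35.7% and 25%), with a median of −0.22 against 0.34, and 4 and 18 after centring (all genes 28.8% and 30.8%, together 59.7%). The 6 include Cox8c and Cox7b2, which passed the filter only through ESC and so had to differ, and 4 of the other 94 genes were higher. Cox6b2 stood at 298 and 203 TPM against 0.114 to 36.7 in the tissues, a log2 difference of 5.07 ± 0.20 (adjusted p = 6.5e-09), and made up 35.1% and 20.2% of the Cox6b transcripts. Cox8c stood at 3.97 and 7.85 TPM and Cox7b2 at 9.78 and 1.90 TPM, against at most 0.109 and 0.822 TPM in any other library. Cox7a1, at 112 and 159 TPM, was below Heart but above every other tissue, and its difference from the mean of the logs was 1.82 ± 0.13 (adjusted p = 5.5e-07). Atp5g2 rose by 1.23 ± 0.10 and was not called after centring (0.88). The clones differed from each other for Uqcrh, at 106 and 284 TPM, and Cox7b, at 225 and 661 TPM. Uqcrh (−1.15 ± 0.26) and Ndufb10 (−1.06 ± 0.11) were no longer called without ESC replicate 1 (−0.44 and −0.92). Cox8b (−4.53 ± 0.28), Ndufa4l2 (−2.40 ± 0.47) and Cox4i2 (−2.09 ± 0.18) were lower.

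In Cortex 3 genes were higher and 4 lower (all genes 35.4% and 20.2%), with a median of −0.18 against 0.38, and 1 and 56 after centring (all genes 22.8% and 37.2%, together 60%). The assembly factor Ndufaf5 stood at 48.7 and 50.7 TPM against 6.20 to 39.7 in the other tissues, without overlap, a log2 difference of 1.56 ± 0.08 (adjusted p = 3.2e-08), and Atp5s, also known as factor B, stood at 37.2 and 36.6 TPM (1.16 ± 0.13). Neither was called after centring (0.67 and 0.27). Cox7b2 stood at 0.822 and 0.787 TPM in Cortex and was called higher (2.20 ± 0.44) on the scale of logs, though the mean elsewhere, led by ESC, was 0.979 TPM, and was not called with a pseudocount of 1. Cox8b (−2.57 ± 0.28), Cox7a1 (−2.34 ± 0.13), Cox6b2 (−1.34 ± 0.20) and Cox8c (−1.30 ± 0.29) were lower, the last listed at 0 and not called with a pseudocount of 1.

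Other genes of the pathway were taken from a list of 52 names, of which 50 were in the table. The 13 genes of the mitochondrial genome were called higher in Heart (9 of 13) and Kidney (10 of 13) and lower in Lung (11 of 13) and Spleen (11 of 13). Heart and Kidney also had longer reads than Lung and Spleen, and tissue and read length cannot be told apart here. Of the 13 genes mt-Nd6, coded on the other strand, was lower in Lung by 4.15 ± 0.17 and in Spleen by 3.85 ± 0.17 on the log2 scale. mt-Atp8, mt-Nd4l, mt-Co2, mt-Co3 and mt-Atp6 varied between the libraries of a tissue, and calls for them were lost without single libraries. Copies of mitochondrial genes in the nucleus could share their reads, and this was not tested. Of the 28 assembly and related genes 10 were higher in Heart. In Liver 10 of the 28 were lower, beside 67.4% of all genes, and after centring 0 were lower and 15 higher. Ppargc1a, a coactivator of mitochondrial biogenesis, was higher in Cortex (3.39 ± 0.13), Heart (3.64 ± 0.13) and Kidney (3.46 ± 0.13) and lower in ESC (−5.79 ± 0.13). The related Ppargc1b was lower in Lung (−2.81 ± 0.21). Gabpa, a transcription factor of respiratory genes, was higher in ESC (2.10 ± 0.11), where Cyct, the testis form of cytochrome c, stood at a mean of 77.0 TPM against 0.253 in the tissues. Ttc19, of complex III assembly, was higher in Cortex (3.03 ± 0.14), and Sco2, of complex IV assembly, in Liver (1.84 ± 0.15). Cox20 was lower in ESC (−2.17 ± 0.08) and the inhibitor Atpif1 in Liver (−2.49 ± 0.11), the latter not after centring (−0.70).

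Under pladienolide B more respiratory chain genes rose than fell in TPM, while most genes fell. Of the 96 genes 86 passed the filter, and limma on the 4 fibroblast libraries called 49 higher and 22 lower at an adjusted p under 0.05, where 15.6% of the 13577 genes tested were higher and 73.4% lower. The median log2 difference was 0.29 for the respiratory chain genes and −1.15 for all genes. After centring 83 were higher and 1 lower, where 51.4% and 36.2% of all genes were (together 87.6%). The 96 genes took 1.14% and 1.22% of TPM in DMSO and 1.54% and 1.51% in PladB.

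The complexes were unequal. All 11 tested genes of complex IV were higher, with a median log2 difference of 0.61, and so were 21 of 30 accessory subunits of complex I, 10 of 16 of complex V and 5 of 8 of complex III. Of the 7 core subunits of complex I, 0 were higher and 5 lower, with a median of −0.40, and of its 7 assembly factors 1 was higher and 5 lower, with a median of −1.21. Both assembly factors of complex II were lower, and of its 4 subunits 1 was higher and 2 lower. In complex III the 2 large core proteins Uqcrc1 and Uqcrc2 were lower (−0.52 and −0.58), while Uqcr11, Uqcrq, Uqcr10, Uqcrh and Uqcrb were higher. After centring every tested gene was called higher, except among the assembly factors of complex I, of which 4 were higher and 1 lower.

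**Figure D3:**
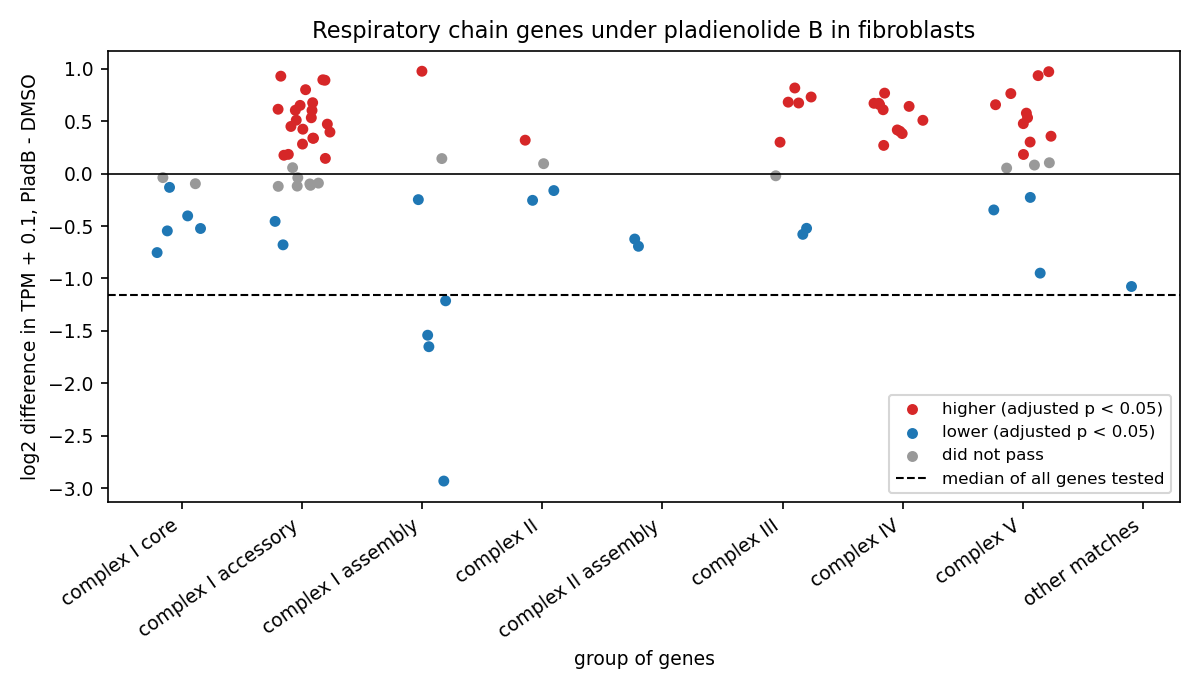
Each point is 1 of the 86 tested genes, by group on the x axis, with the log2 difference in TPM + 0.1 between PladB and DMSO on the y axis, and the dashed line is the median of all genes tested, −1.15. The 11 points of complex IV lie above 0, and Ndufaf1 lies lowest at −2.93.

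The 10 highest were Ndufaf3, Atp5k, Atp5e, Ndufa1, Ndufc1, Ndufa3, Uqcr11, Ndufa2, Cox6c and Atp5l, all but Ndufaf3 small subunits. Ndufaf3 stood at 26.3 and 24.4 TPM in DMSO and 51.1 and 48.7 in PladB, a log2 difference of 0.97 ± 0.06 (adjusted p = 4.8e-05). Atp5k stood at 54.6 and 68.6 against 122 and 118 TPM (0.97 ± 0.11, adjusted p = 0.00074) and Atp5l at 401 and 439 against 720.3 and 703 TPM (0.76 ± 0.05, adjusted p = 9.5e-05). The groups did not overlap for any of these genes.

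The 10 lowest were Ndufaf1, Ndufaf6, Ndufaf7, Ndufaf4, Atp5sl, Atp5s, Ndufv2, Sdhaf2, Ndufv3 and Sdhaf1, of which 6 are assembly factors. Ndufaf1, which helps to build the membrane arm of complex I, stood at 26.2 and 27.3 TPM in DMSO and 3.05 and 3.84 in PladB. It was 7.62-fold lower, a log2 difference of −2.93 ± 0.12 (adjusted p = 1.3e-05), and the 1 gene still lower after centring (−1.48). Ndufaf6 stood at 6.89 and 7.15 against 1.91 and 2.46 TPM (−1.65 ± 0.14) and Ndufaf7 at 28.7 and 30.0 against 10.6 and 9.49 TPM (−1.54 ± 0.07). Both were lower by about as much as the median gene and not called after centring (−0.20 and −0.09). Ndufaf4, Atp5sl, Atp5s, Ndufv2, Sdhaf2, Ndufv3 and Sdhaf1, at −1.21 to −0.62, turned positive after centring.

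The genes that were higher were shorter by the median, but the ranges overlapped. Their median span on the genome was 6487 bp, against 14780 bp for the 22 that were lower and 9102 bp for the 15 not called. Spans ran from 1154 to 34340 bp for the higher genes and from 967 to 48382 bp for the lower ones. Over the 86 genes Spearman's rho between span and log2 difference was −0.50, and over the 12024 genes tested that had a span it was −0.38. These are correlations across genes of the same 4 libraries, and genes are not independent replicates.

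Of the pathway list, 21 of 28 assembly and related genes were lower in PladB and 5 higher, and all 5 tested regulators were lower, beside 73.4% of all genes. After centring 19 of the 28 were higher and 6 lower, and of the regulators 1 was higher and 3 lower. Nrf1, a transcription factor of respiratory genes, fell from a mean of 9.34 to 0.737 TPM (−3.50 ± 0.09), and Cox15 (−3.30 ± 0.09) and Cox10 (−3.07 ± 0.17), both of heme A synthesis for complex IV, fell with it. These 3 were lower after centring too. Of the 13 genes of the mitochondrial genome, 10 were higher and 1 lower, and after centring 12 were higher and 0 lower. The limit given above on reads shared with nuclear copies holds here too. Of the fibroblast markers Pdgfra stood at 441 and 437 TPM in DMSO and 82.8 and 82.6 in PladB. Col1a1 stood at 1092 and 1039 against 1056 and 1005 TPM, and Col1a2 at 1100 and 1071 against 1272 and 1224 TPM. Thy1 stood at 5.51 and 5.73 against 8.09 and 8.16 TPM. The sum of the 4 markers was 2552 and 2639 against 2319.9 and 2419 TPM.

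Splicing of respiratory chain genes was given as PSI, the share of transcripts that include an exon (SE) or keep an intron (RI), from reads over the junctions. In the tissue libraries between 1.26% and 2.59% of their SE events with at least 20 reads lay between PSI 0.1 and 0.9, against 9.65% to 15.6% of all events. In the fibroblasts the shares were 1.81% in DMSO and 1.43% in PladB, against 5.47% and 13.5%. Their events were also read more deeply, with a median of 30896 reads in Heart against 578 for all events. Splicing tests used a quasi-binomial model and called an event at an adjusted p under 0.05 and a PSI difference of at least 0.1.

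Across the 7 tissues 238 events of 77 genes were tested and 4 were called (1.68%), where 13.5% of 36178 events were. The median of the switch score, the highest less the lowest tissue PSI, was 0.00506 for respiratory chain genes and 0.0241 for all events. The largest was an exon of 37 bp of Atp5c1, the gene of the gamma shaft of complex V, at chr2:10056770-10056806 on the minus strand of mm10. Leaving this exon out is known from muscle. Its PSI was 0.0124 and 0.0158 in Heart, 0.656 and 0.718 in Lung, 0.748 and 0.939 in the ESC clones and 0.931 to 0.974 in the other tissues, a switch score of 0.958 (adjusted p = 2.1e-21). Heart did not overlap with any other tissue. The lower PSI in Lung stood beside the heart markers of these libraries, whose part in it was not tested. In ESC the clone with the lower PSI, replicate 1, had the higher Acta1 but the lower sums of the skeletal muscle and heart lists.

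The second was an exon of 1092 bp of Ndufv3, an accessory subunit of complex I, at chr17:31527310-31528401 on the plus strand, a multiple of 3 in length. The gene is known to give a long and a short form of the subunit that differ by such an exon. Its PSI was 0.00678 and 0.00788 in Heart, 0.0718 and 0.0789 in Liver, 0.111 to 0.135 in Cortex, Kidney and Spleen, 0.143 and 0.192 in ESC and 0.230 and 0.238 in Lung, a switch score of 0.227 (adjusted p = 8.9e-20). Heart was lowest and Lung highest, both without overlap, and Cortex, Kidney and Spleen overlapped with one another.

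The other calls were smaller. An exon of 57 bp of Ndufaf6 at chr4:11066651-11066707 had a PSI of 0.626 and 0.681 in Heart, 0.598 and 0.742 in ESC and 0.822 and 0.832 in Kidney, a switch score of 0.173 (adjusted p = 0.0041). An exon of 67 bp of Ndufb5 at chr3:32746448-32746514 was read in Heart and Kidney with enough depth, at 0.0107 and 0.0186 against 0.283 and 0.0416. The Kidney libraries lay further apart than the switch score of 0.148 (adjusted p = 0.011), and the call was lost without Kidney replicate 1, where the score was 0.03. An exon of Ndufv2 had a larger score of 0.285 but libraries of 1 tissue as far apart as 0.858 and 0.354 in Liver, and was not called (adjusted p = 0.31).

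**Figure D4:**
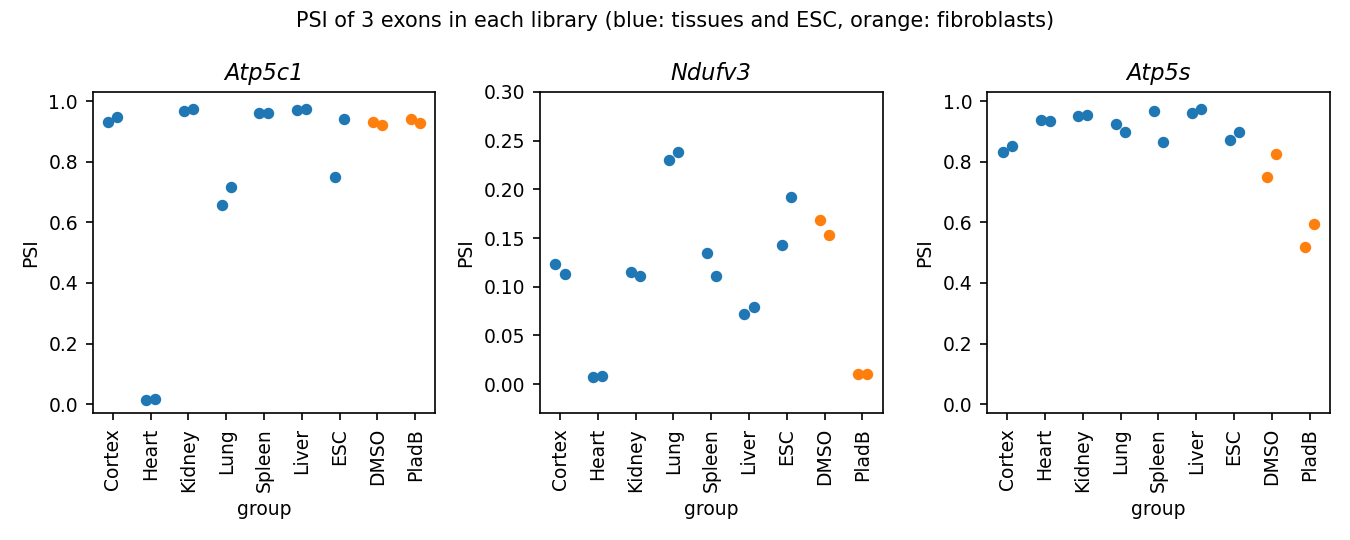
PSI of 3 exons in each library, with groups on the x axis and 2 points a group. The Atp5c1 exon lies near 0 in Heart, the Ndufv3 exon near 0 in Heart and PladB, and the Atp5s exon lies lower in PladB (0.520 and 0.594) than in DMSO (0.750 and 0.824). The Ndufv3 axis ends at 0.3. Tissues and fibroblasts were not tested against each other.

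Under pladienolide B few exons of these genes changed by the minimum size. Of 134 events of 63 genes tested, 2 were called (1.49%), both lower, where 19.8% of 22213 events were called (19.3% lower and 0.518% higher). The median absolute change in PSI was 0.00239, against 0.0217 over all events. At an adjusted p under 0.05 with no minimum size, 31 events passed (23.1%, against 45.2% of all events), 29 lower and 2 higher. With events near a PSI of 0 or 1 left out, only 6 remained, of which 2 were called, where 54.3% of 8141 events were. The Ndufv3 exon described above had a PSI of 0.169 and 0.153 in DMSO and 0.0104 and 0.0105 in PladB, a difference of −0.150 (adjusted p = 2.6e-117). An exon of 111 bp of Atp5s at chr12:69737951-69738061 had 0.750 and 0.824 in DMSO and 0.520 and 0.594 in PladB, a difference of −0.230 (adjusted p = 0.010). The Atp5s exon lost its call without DMSO replicate 2 (adjusted p = 0.14) and without PladB replicate 1 (adjusted p = 0.068). An exon of Ndufaf7 at chr17:78944941-78945084 came next, with 0.947 and 0.940 against 0.880 and 0.820, just under the minimum size at −0.094 (adjusted p = 0.0053). The transcripts of these 3 genes were lower in PladB as deposited, while after centring Atp5s and Ndufv3 were higher and Ndufaf7 was not called.

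Of 6 retained introns 4 were tested and 0 were called, where 40.9% of 1733 were. At an unadjusted p under 0.05 there were 2, which also passed at an adjusted p under 0.05 below the minimum size (50% of the 4, against 61.9% of all introns tested), and limma on the log2 read ratio called 0. The intron of Ndufb10 on chromosome 17, between exons that meet it at 24722220 and 24722381, had a PSI of 0.0315 and 0.0285 in DMSO and 0.112 and 0.144 in PladB, without overlap, a difference of 0.098 (adjusted p = 7.9e-08). It was called without PladB replicate 1. Ndufv1 stood at 0.0153 and 0.0197 against 0.0372 and 0.0356 (0.019, adjusted p = 0.0025). Uqcrq, with most of its reads in the retained form, stood at 0.877 and 0.879 against 0.871 and 0.863, and did not pass the test (adjusted p = 0.47). The introns of Ndufa3, at a PSI of 0.999 to 1 in each library, and Cox6b2, with few reads, were not tested.

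Because every library held both alleles in the same cells, reads that a strain difference assigned to C57BL/6J or SPRET/EiJ gave a PSI for each allele, and the difference ΔPSI was taken as C57BL/6J less SPRET/EiJ. Autosomal events were tested where the allele reads together gave a PSI within 0.1 of that of all reads. Calls at the minimum size were as follows. Lung had most, with 4 of 61 (all events 9.7%), then Cortex with 3 of 63 (10.2%) and Kidney with 3 of 97 (8.73%), while Heart had 1 of 110 (8.42%), Spleen 1 of 64 (8.2%) and Liver 1 of 50 (6.14%). The counts were 2 of 71 in ESC (3.1%), 3 of 53 in DMSO (9.26%) and 2 of 101 in PladB (8.98%). At an adjusted p under 0.05 with no minimum size the shares were 15.6% to 22.2% in the 6 organs (all events 11.3% to 16.9%), 5.63% in ESC (3.91%), 32.1% in DMSO (22.2%) and 17.8% in PladB (17.1%). With events near a PSI of 0 or 1 left out, the calls were 4 of 9 in Lung (all events 24.9%), 3 of 8 in Cortex (22.4%), 3 of 7 in Kidney (29.4%) and 3 of 6 in DMSO (28.3%). They were 1 of 5 in Heart (21.1%), 1 of 6 in Spleen (20.3%) and 1 of 5 in Liver (23.3%). In ESC they were 2 of 8 (6.11%) and in PladB 2 of 12 (20.8%). The calls at the minimum size came from Uqcr10, Ndufv3, Atp5sl, Atp5s, Atp5c1, Ndufaf7 and Atp5j. With the library as a block, since the alleles share it, the ESC calls were 3 for these genes and 763 in place of 309 over all events. No other count of these genes at the minimum size changed. With no minimum size the block passed 21 events of these genes in ESC in place of 4 (all events 1463 in place of 390). In Heart it passed 35 in place of 21, and the other groups also rose, for these genes and for all events.

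An exon of 86 bp of Uqcr10, a small subunit of complex III, at chr11:4703904-4703989 on the minus strand, was used by the C57BL/6J allele in every group and hardly by the other. The C57BL/6J PSI ran from 0.0426 and 0.0481 in Heart over 0.0731 and 0.0892 in Spleen to 0.196 and 0.184 in DMSO, and the SPRET/EiJ PSI from 0.00351 to 0.00970 over all 18 libraries. The alleles did not overlap in any group. ΔPSI was positive in both libraries of all 9 groups, from 0.0396 in Heart to 0.184 in DMSO, passed at an adjusted p under 0.05 in all 9 and was called in 7, without Heart and Spleen, where it was under the minimum size. Its length is not a multiple of 3.

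The long exon of Ndufv3 went the other way. In Cortex its PSI was 0.0702 and 0.0599 on C57BL/6J and 0.224 and 0.210 on SPRET/EiJ (ΔPSI −0.152), in Lung 0.198 and 0.185 against 0.338 and 0.360 (−0.157), in ESC 0.110 and 0.140 against 0.237 and 0.311 (−0.150) and in DMSO 0.106 and 0.106 against 0.242 and 0.207 (−0.118). These 4 were called. It was negative in both libraries of Kidney (−0.028), Spleen (−0.073) and Liver (−0.043) too, under the minimum size, and slightly positive in Heart (0.00717), where both alleles skipped the exon almost always. In PladB both alleles stood between 0.00698 and 0.0150 and the difference was −0.003 (adjusted p = 0.54).

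**Figure D5:**
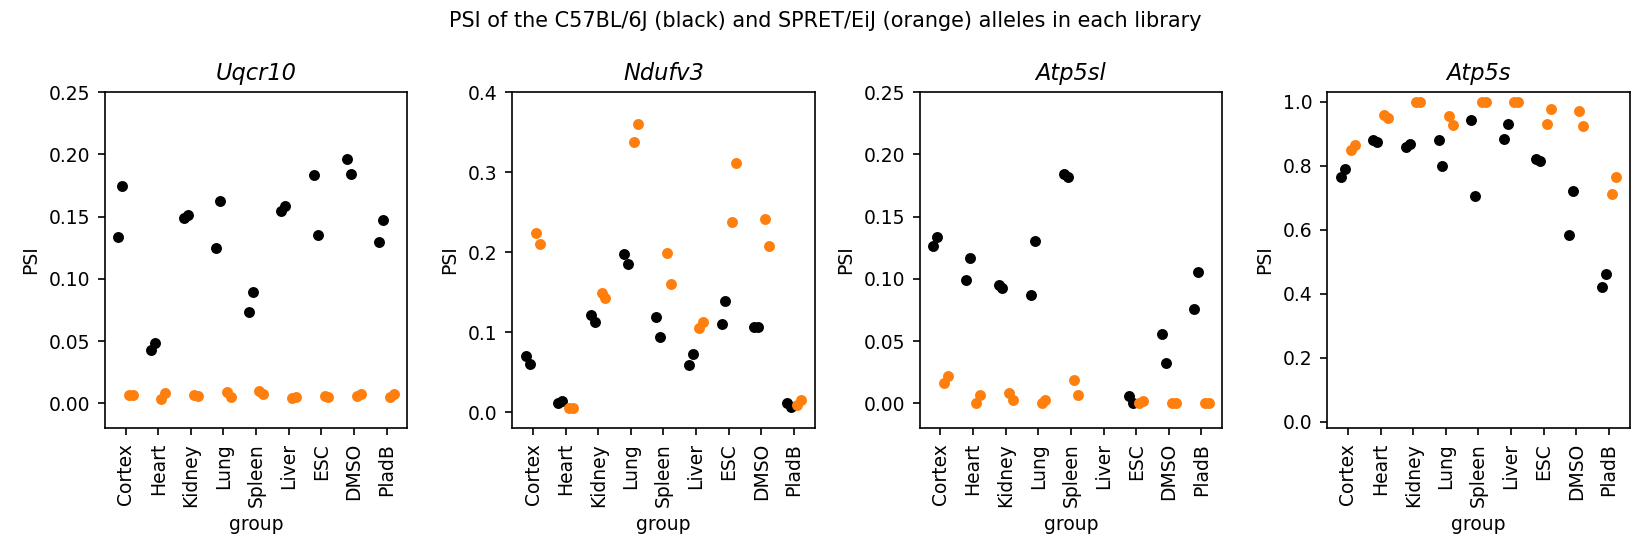
PSI of 4 exons by group, with the 2 libraries of the C57BL/6J allele in black and of the SPRET/EiJ allele in orange. The axes differ between panels, and Atp5sl has no value in Liver. Uqcr10 lies higher on C57BL/6J in all 9 groups, and Atp5s lies higher on SPRET/EiJ in all 9.

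Other allelic differences were called in fewer groups. An exon of 89 bp of Atp5sl at chr7:25621424-25621512, between exons that end at 25621092 and start at 25622344, had a C57BL/6J PSI of 0.184 and 0.181 in Spleen against 0.0185 and 0.00690 (ΔPSI 0.170), and was called with 0.111 in Cortex, 0.107 in Lung and 0.104 in Heart. It was positive in both libraries of 7 of the 8 groups with enough reads. The Atp5s exon that PladB lowered was included less from C57BL/6J in both libraries of all 9 groups, from −0.0771 in Heart to −0.298 in PladB, and was called in Kidney (−0.136) and DMSO (−0.297, with 0.583 and 0.720 against 0.971 and 0.925). The Atp5c1 exon was called in Lung alone (−0.128, with 0.654 and 0.709 against 0.768 and 0.851), the Ndufaf7 exon in Kidney alone (0.129) and an exon of 55 bp of Atp5j at chr16:84833820-84833874 in PladB alone (0.105). With limma on the log2 read ratio, calls were lost for Atp5sl in Heart (adjusted p = 0.081), Ndufaf7 in Kidney (0.075), Ndufv3 in Lung (0.11), ESC (0.46) and DMSO (0.054), Atp5c1 in Lung (0.25), Uqcr10 in ESC (0.075) and Atp5j in PladB (0.12). Differences between groups in these calls were tested only between DMSO and PladB. The Atp5j exon was positive in all 9 groups, but in the tissues its allele reads gave a PSI far from that of all reads, 0.496 and 0.621 against 0.0414 and 0.0429 in Heart, and it was not tested there. An exon of 117 bp of Ndufa5 at chr6:24522659-24522775 had small negative differences in both libraries of all 9 groups, from −0.0690 to −0.0138, with an adjusted p under 0.05 in 8 and none of the minimum size.

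Whether the allelic difference changed with pladienolide B was tested by an interaction over 87 events in 49 respiratory chain genes, and 0 were called, where 0.116% of 9451 events were. At an unadjusted p under 0.05 there were 6. The 2 largest were an exon of Ndufs7, a core subunit of complex I, at chr10:80253079-80253157 (a change in ΔPSI of 0.141, adjusted p = 0.98) and the Ndufv3 exon (0.116, adjusted p = 0.85). The model tests the interaction on the log odds of inclusion, so these p-values do not refer to the change in ΔPSI itself. With 2 libraries a group, an absent call does not show that an allelic difference stayed the same.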

How the data were processed

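Deposited TPM values of 18 libraries and deposited tables of junction read counts (inclusion and skipping reads for each event, given as a list of both libraries, with each form's effective length as a score) were used. Per the labels and methods, the authors cut the longer tissue reads to a common length, mapped all reads with HISAT2 2.0.1 against mm10 and against a genome of the other parent, split them by allele, counted fragments per gene, dividing those that overlap several genes, and obtained splicing events with rMATS. Per the methods, Heart, Kidney and Cortex had the longer reads and Spleen, Lung and ESC the shorter ones. Differences between these 2 sets of tissues therefore cannot be told apart from the sequencing, even after the cut. In the allelic events of these genes the skipping form's effective length was at most 149 in the fibroblasts and 75 in tissues and ESC. A difference in PSI between fibroblasts and tissues cannot be told apart from this difference in lengths. Fractional counts and reads shared between gene copies can move single TPM values. Columns of the authors' own comparisons (p-values, false discovery rates and inclusion differences) were not used. Liver libraries came from an earlier study of the same animals.

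Genes with at least 1 TPM in 2 libraries were tested with limma 3.58.1 in R 4.3.3 on log2(TPM + 0.1), with a trended prior. PSI was computed from the read counts divided by the form lengths. Events with at least 20 reads in each library (and allele) and 10 reads of the less used form were tested with a quasi-binomial model in Python, whose dispersion was moderated over all events by depth and held at 1 or above. p-values were adjusted (Benjamini-Hochberg) across every feature tested. The code was tested on simulated data. The interaction and the fits within groups used the same model. All 96 symbols were matched to RefSeq spans of GRCm38.p6. Sequences of exons are not shown here. Depth limits the shares of reads. With 2 libraries a group, p-values rest on the spread within groups, pooled over the groups of a fit and moderated over all features. They do not measure the spread of 1 group alone. The libraries are animals, clones or, in the fibroblasts, samples of 1 line. No 2 libraries of a group were copies, since at most 0.157% of genes over 1 TPM had equal values (within 1e-04).

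The genes and lists were chosen with earlier results of these data known. Named in the text were the isoform sets, up to 5 called genes in each direction per tissue, up to 10 for PladB, called events up to 10 or else the 2 largest, the highest and lowest gene of each complex, and up to 3 pathway genes in each direction. Genes and events outside this rule (Cox8a, Cox7b, Uqcrc1 and Uqcrc2 in their comparisons, the exons of Ndufv2, Ndufa5 and Ndufaf7, and all introns) were named after their values were seen. Some values that this rule would name are not reported here. Alternatives were a pseudocount of 1, no filter, centring on library medians, no genes of the mitochondrial genome, a prior without trend, the replicate block, minimums of 10 and 40 reads, no events near a PSI of 0 or 1, no limit on allelic against all reads, and leaving out each library. limma on log2 read ratios was added after the data were seen.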

Additional observations from a re-analysis of the deposited data

Results flagged for a closer look

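An exon of Ndufs7 at chr10:80253079-80253157 had an allelic difference of opposite sign in PladB and Liver. ΔPSI was 0.182 in PladB, positive in both libraries (0.104 and 0.259), and −0.224 in Liver, negative in both (−0.263 and −0.185). Neither passed the test in its own group (adjusted p = 0.094 and 0.16), and the difference between the groups was not tested.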

How the results depend on the processing

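Centring each library on its median changed most counts of tissue calls, to 57 (Cortex), 11 (Kidney), 81 (Lung), 72 (Spleen), 64 (Liver) and 22 (ESC), and turned the PladB log2 differences of Ndufaf4 (0.24), Atp5sl (0.38), Atp5s (0.50), Ndufv2 (0.70), Sdhaf2 (0.76), Ndufv3 (0.77) and Sdhaf1 (0.82). The centring itself moves every gene by the library medians. Without genes of the mitochondrial genome 84 genes were higher and 2 lower in Heart (all genes 13.3% and 32.9%). They were 4 and 4 in Cortex (36.9% and 19.2%), 0 and 20 in Liver (7.99% and 67.1%) and 5 and 7 in ESC (34.0% and 25.9%). In PladB 52 were higher and 21 lower (16.6% and 72.3%). Without the limit on allelic against all reads, allelic calls were 2 in Heart and 6 in Kidney. limma on the log2 read ratio gave 0 allelic calls in Heart, 2 in Lung, 2 in Liver, 0 in ESC and 1 in PladB, and the cause was not tested. Without single libraries the TPM calls numbered 6 to 8 (Cortex), 81 to 84 (Heart), 18 to 22 (Kidney), 41 to 46 (Lung), 31 to 38 (Spleen), 14 to 31 (Liver, lowest without Liver replicate 2), 10 to 12 (ESC) and 65 to 72 (PladB). It gave 1 to 2 in SE and 0 to 1 in RI under PladB, 3 to 7 across tissues (7 without ESC replicate 1) and 0 to 0 in the interaction. Within 1 group an allelic comparison has no residual freedom without a library, and each library alone kept the sign of the called differences. The organs came from 2 animals, but the labels do not tie a replicate number to an animal. Deviations of same-numbered organ libraries correlated at 0.0335 to 0.173 in the 15 pairs of organs, over 0.1 in 4, so whether the numbers pair them is not known. The ESC clones and fibroblast samples share only a number. With the replicate block, calls were 83 in Heart, 44 in Lung, 21 in Liver and 70 in PladB TPM, and no call of a named gene or event changed. The count-model alternative was not run. Over the named genes and events 2041 values under alternatives kept their direction and side of the threshold, 85 lost and 1 gained a call, and 7 reversed.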
